A study of Mus musculus with 8 samples.

Results

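Annotated lncRNA transcripts with enough reads to be compared were followed through 4 stages of mouse B-cell development in the bone marrow. The 913 members were chosen by their read counts. Each has an Ensembl transcript identifier in the authors' lncRNA table and 50 counts or more when its 4 long RNA libraries are summed, and Malat1, Neat1, Gas5 and the transcripts with Snhg names were left out. They come from 29916 annotated rows, of which 20972 had no count at all, 8021 had counts under the minimum and 10 reached it but were left out by symbol. The lncRNA table holds 38663 rows in all, the other 8747 being transcripts assembled without an annotation.

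The cells were sorted from the bone marrow of female C57BL/6 mice aged 8 to 10 weeks by surface B220, IgM and CD43. Pro-B cells were taken as B220+IgM-CD43+ and pre-B cells as B220+IgM-CD43-. Immature B cells were B220+IgM+CD43- and mature B cells B220hi IgM+CD43-. The cells of 3 mice were pooled for each stage and 1 rRNA-depleted, strand-specific library was sequenced per stage. There are therefore no replicates, no difference between stages has a replicate check, and none was tested. A level is given as a share, in counts per 1000000 counts of all annotated lncRNA rows of the library (CPM). Ratios of shares carry exact 95% intervals that cover counting error only, and counts of 3 or fewer were set to 3 before a ratio was taken.

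LncRNAs are RNA polymerase products without a long open reading frame. Some act on the chromosome they are made from, as Xist does when it coats and silences 1 X chromosome in female cells, some carry small RNAs in their introns, and many run antisense to a protein-coding gene. A large part of the annotated mouse lncRNAs is known only by a number (Gm) or a clone name (Rik). Ensembl also annotates, within protein-coding genes, transcripts that are not translated, such as those that keep an intron, and these were counted in the same table.

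RefSeq promoters are shown for 4 noncoding members described below, because these members had their highest shares in different stages: AU020206 and Xist in pro-B, Bach2os in pre-B and Gm36043 in mature B cells. Each runs 5′ to 3′ on the strand of the gene, from 250 bases before the annotated start to 50 bases after it, in build GRCm38.p6. The positions are chr7:75782071-75782370 for AU020206, chr4:32571613-32571912 for Bach2os, chr19:29384902-29385201 for Gm36043 and chrX:103483184-103483483 for Xist, all on the minus strand. Capitals mark the letters of 7 motifs searched on both strands, which are given after the sequences.
AU020206: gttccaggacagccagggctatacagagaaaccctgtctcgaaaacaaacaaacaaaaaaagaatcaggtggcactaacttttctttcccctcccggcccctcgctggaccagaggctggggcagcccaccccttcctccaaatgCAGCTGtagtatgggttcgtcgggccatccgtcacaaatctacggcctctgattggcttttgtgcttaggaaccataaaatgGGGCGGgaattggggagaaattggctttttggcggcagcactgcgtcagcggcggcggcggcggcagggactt
Bach2os: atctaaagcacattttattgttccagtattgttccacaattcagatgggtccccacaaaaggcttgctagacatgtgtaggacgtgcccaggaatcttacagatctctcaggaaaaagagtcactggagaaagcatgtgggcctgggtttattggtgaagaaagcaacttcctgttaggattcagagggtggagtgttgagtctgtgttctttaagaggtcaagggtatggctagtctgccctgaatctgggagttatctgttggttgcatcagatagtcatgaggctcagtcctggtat
Gm36043: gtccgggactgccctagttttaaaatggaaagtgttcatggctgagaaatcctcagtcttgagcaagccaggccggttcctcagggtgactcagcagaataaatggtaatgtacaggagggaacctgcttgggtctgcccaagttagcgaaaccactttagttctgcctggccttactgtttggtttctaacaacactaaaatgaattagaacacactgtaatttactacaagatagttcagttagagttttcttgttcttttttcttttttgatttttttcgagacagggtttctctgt
Xist: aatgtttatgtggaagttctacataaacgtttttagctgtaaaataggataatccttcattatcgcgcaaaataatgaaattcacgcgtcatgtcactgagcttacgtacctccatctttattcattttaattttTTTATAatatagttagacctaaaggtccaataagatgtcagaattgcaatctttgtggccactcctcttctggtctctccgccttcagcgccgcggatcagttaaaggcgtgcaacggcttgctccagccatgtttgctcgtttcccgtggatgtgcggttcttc

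The search used CAGCTG as the letters that E2A binds and CCCNNGGG for EBF1, both factors of the early B lineage. It used ATTTGCAT for the octamer of the Oct factors and GAGGAAGT for PU.1. The Ikaros letters were TGGGAA. For the widely expressed factor Sp1 the letters were GGGCGG, and for the TATA box of the core promoter they were TATAAA. AU020206 held CAGCTG and GGGCGG, Xist held TATAAA on the opposite strand, and no searched letters stood in the windows of Bach2os and Gm36043. CAGCTG was in 16.3% of the 32851 RefSeq promoters of this length, GGGCGG in 35.7% and TATAAA in 13.6%. For 174 symbols of noncoding members 215 promoters were found, and 20.9%, 26.0% and 9.30% of them held these letters in the same order. GAGGAAGT was in 6.05% of these 215 and in 3.2% of all promoters. By the stage of the highest share it was in 4 of 31, 2 of 67, 0 of 77 and 7 of 47 promoters from pro-B to mature B cells, counts too small to order the stages. CCCNNGGG was in 17.2% of the 215 and in 13.7% of all, TGGGAA in 25.6% of both, and ATTTGCAT in 1.86% and 1.74%. The 330 promoters of members with the symbol of a protein-coding gene were richer in G and C (median 62.3%) than the 215 noncoding ones (53.3%), and 65.8% of them held GGGCGG.

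The members are a mixed set, and the label lncRNA covers only part of it. By kind, 240 are counted as RefSeq noncoding genes, 24 as RefSeq pseudogenes and 312 as having no RefSeq gene of their symbol. The other 337 (36.9%) carry the symbol of a protein-coding gene or of a row of the mRNA table. Of these 337, RefSeq calls 333 protein-coding and the 3 Tug1 members lncRNA, and another has no RefSeq gene of its symbol. All 337 are described here as having the symbol of a protein-coding gene. By name, 401 members have a Gm number, 118 a Rik clone name and 394 another symbol. The 913 members have 866 symbols, 40 of them with several members. For 15 of these 40 symbols all members had their highest share in the same stage.

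For the 305 symbols of members that also have a row in the mRNA table, both tables count partly the same reads. Of 3754 symbols with annotated lncRNA counts and an mRNA row, the annotated lncRNA rows together exceeded the mRNA row in some library for only 2, and for 254 they equalled it in every library, to within 0.05 counts. The olfactory receptor gene Olfr1385 is an example, with 581, 709, 803 and 616 counts in both tables from pro-B to mature B cells. The counts of such members were therefore also read as a percent of the gene's counts. The intervals of these percents take the estimated counts as reads counted singly. They cover neither errors in assigning reads to transcripts nor the counting of both reads of a pair.

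The libraries differ in how much of each class they hold, and this touches every share given here. The annotated lncRNA rows summed to 118462 counts in pro-B, 87216 in pre-B, 91174 in immature B and 127145 in mature B cells. The mRNA table fell much further in the middle stages, from 867920 counts in pro-B to 240231 in pre-B and 223495 in immature B cells, and stood at 849350 in mature B cells. There were thus 7.33, 2.75, 2.45 and 6.68 mRNA counts per annotated lncRNA count. Unannotated transcripts held 2638360 to 3382540 counts in every library. Whether cells, RNA or library preparation set this difference was not tested, and with 1 library a stage it cannot be told apart from the stage.

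The members took 74.2%, 86.9%, 86.9% and 74.9% of the annotated counts from pro-B to mature B cells. Malat1, which is no member, took 3.94%, 0.516%, 1.06% and 4.83%. The members' own counts were 87934, 75781, 79191 and 95188, a far smaller range than that of the mRNAs.

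**Figure D1:**
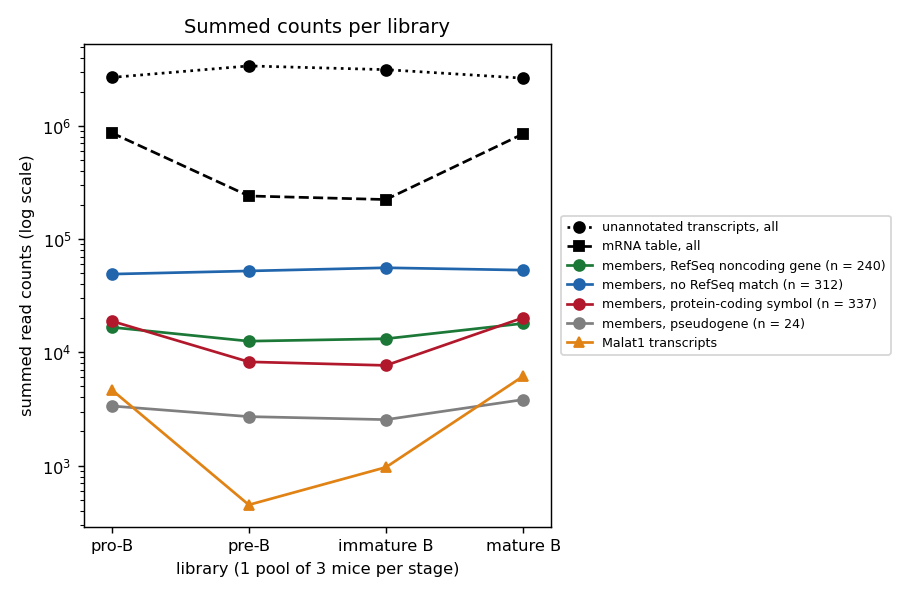
Read counts summed per library for the 4 kinds of members, for Malat1, for all unannotated transcripts and for the whole mRNA table (vertical log axis, counts; horizontal axis, the 4 libraries, 1 pool of 3 mice each). The 312 members with no RefSeq match stay between 49062 and 55809 counts, while the mRNA table, Malat1 and the 337 members with the symbol of a protein-coding gene are lower in pre-B and immature B than in pro-B and mature B cells.

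The kinds of members moved differently between the libraries. The 312 members with no RefSeq match summed to 49062, 52295, 55809 and 53193 counts from pro-B to mature B cells, so they were almost level in raw counts. The 240 RefSeq noncoding genes summed to 16642, 12545, 13176 and 17981 counts. The 337 members with the symbol of a protein-coding gene summed to 18874, 8236, 7663 and 20195 counts, low in the middle stages as the mRNA table was. The median over members of the highest raw count divided by the lowest was 2.75 without a RefSeq match, 3.28 for noncoding genes and 10.4 with a protein-coding symbol, beside 8.75 over 6942 mRNA rows and 2.94 over 6823 unannotated transcripts that reached the same minimum.

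Few transcripts made up most of the counts. The 5 members with the most counts held 18.7% of all member counts, the top 10 held 29.6% and the top 100 held 67.4%. All of the top 5 carry Gm numbers without a RefSeq match.
Gm47578 had 4448, 3926, 4815 and 4016 counts from pro-B to mature B cells, and Gm47031 had 3675, 3631, 4189 and 3685. Gm17494 had 2932, 3262, 2430 and 1880 counts, Gm17300 had 2316, 2665, 1917 and 3275, and Gm45090 had 2210, 2541, 3205 and 2155. For these 5 the highest raw count was between 1.15 and 1.73 times the lowest. No function of these 5 transcripts can be given.

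Per length, in the authors' FPKM, which divide a count by the length of the transcript and by the mapped fragments, Rmrp was the highest member in pro-B and in mature B cells. Rmrp is the RNA of the RNase MRP complex that cuts ribosomal RNA precursors, and it had 663 in pro-B, 216 in pre-B, 231 in immature B and 1111 in mature B cells. The highest member in pre-B cells was a transcript of Gm11175, at 455, and in immature B cells it was Gm45090, which had FPKM values of 354, 385, 531 and 355 in the same order. The median FPKM over the 312 members without a RefSeq match was 3.87, 3.99, 5.05 and 4.77, and over the 337 with a protein-coding symbol 3.53, 0.74, 0.76 and 3.48. At the median member the level is therefore low, and the top transcripts stand far above it.

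As shares of the annotated counts, the members' highest stages were spread almost evenly. Of the 913, 220 had their highest share in pro-B, 242 in pre-B, 224 in immature B and 227 in mature B cells, or 24.1%, 26.5%, 24.5% and 24.9%. In the mRNA table, scaled to its own total, 33.7%, 19.6%, 18.4% and 28.3% of the rows at the same minimum were highest in these stages, and of the unannotated transcripts 32.4%, 16.6%, 19% and 31.9%. The even spread hides the kinds. Of the 337 members with a protein-coding symbol, 139 were highest in pro-B and 129 in mature B cells. Of the 312 without a RefSeq match, 114 were highest in pre-B and 116 in immature B cells, and of the 240 noncoding genes 78 and 75.

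The stage of the highest share depended on what the counts were divided by. Divided by the mRNA total in place of the annotated lncRNA total, the highest share was in pro-B cells for 111 members, in pre-B cells for 285, in immature B cells for 379 and in mature B cells for 138. With the FPKM values the numbers were 250, 125, 181 and 357. A fold between a middle and an outer stage is thus tied to the scaling, while the percent of a gene's counts that a transcript makes in a library is not.

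The ratio of the highest to the next share had a median of 1.37, and for 363 members (39.8%) its interval lay above 1. The interval did so for 34.4% of the mRNA rows and 56.3% of the unannotated transcripts at the same minimum. Most low whole counts were even (76.8% to 81.4% of those from 1 to 20 in the annotated rows), as when both reads of a pair are counted, so the intervals are narrower than pairs would give. With the counts halved, 220 members (24.1%) had an interval above 1. All 4 libraries held counts of 733 members (80.3%), and 201 of the 337 with a protein-coding symbol. They held counts of 90.1% of the mRNA rows and 91.2% of the unannotated transcripts. At least 90% of the summed shares lay in 1 stage for 14 members (1.53%), 9 of them in pro-B and 5 in mature B cells, beside 0.619% of the mRNA rows and 1.47% of the unannotated transcripts.

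Between neighbouring stages, a member was counted as higher or lower where its share differed at least 2-fold. From pro-B to pre-B cells 190 members (20.8%) were higher and 299 (32.7%) lower. Of the mRNA rows 14% were higher and 33.6% lower by the same rule, and of the unannotated transcripts 8.81% and 27%. The lower members were mostly those with a protein-coding symbol, 198 of 337, while 82 of the 312 without a RefSeq match and 72 of the 240 noncoding genes were higher. Scaled to the mRNA total, the split was 527 higher and 154 lower.

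From pre-B to immature B cells 135 members (14.8%) were higher and 140 (15.3%) lower, near the backgrounds of 16.7% and 15.6% in the mRNA table and 16.5% and 10.7% among the unannotated transcripts. These libraries had similar totals, and no kind of member leaned strongly to a side, with 54 higher and 68 lower of the 337 with a protein-coding symbol. From immature B to mature B cells 291 members (31.9%) were higher and 200 (21.9%) lower, beside 27.9% and 17.8% of the mRNA rows and 21.5% and 16.3% of the unannotated transcripts. Here 208 of the 337 members with a protein-coding symbol were higher, and 94 of the 312 without a RefSeq match and 73 of the 240 noncoding genes were lower. Scaled to the mRNA total, this split was 141 higher and 540 lower.

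**Figure D2:**
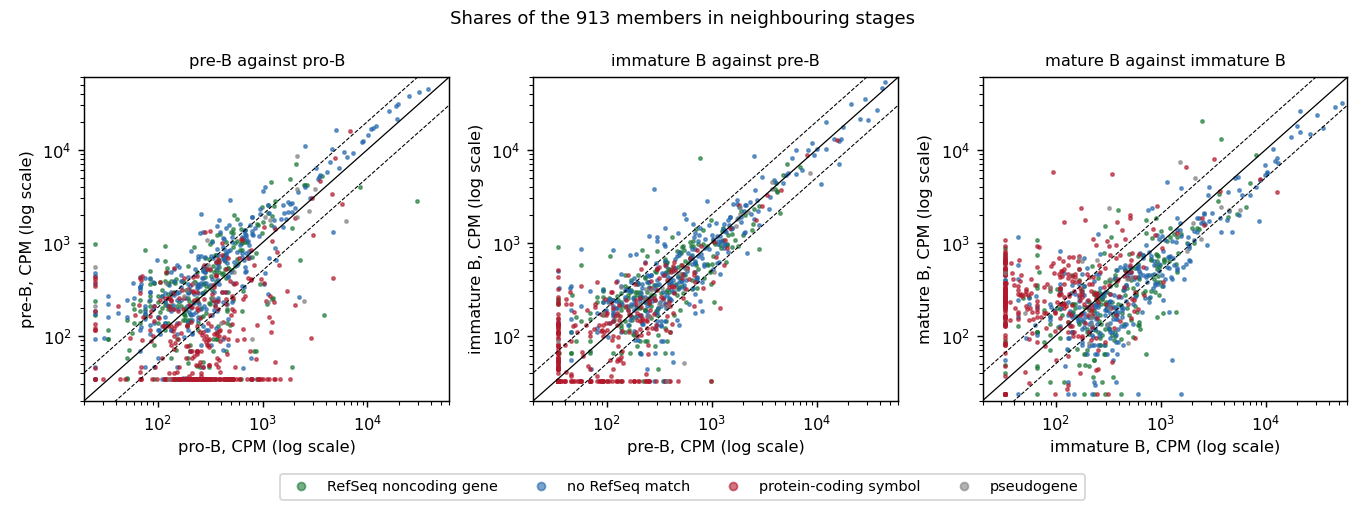
Shares of the 913 members in each pair of neighbouring stages (both log axes, CPM of annotated lncRNA counts; 1 point a member, coloured by kind; solid line, equal shares; dashed lines, 2-fold). Points in a row at the left or bottom edge had 3 counts or fewer and were set to 3. The members with a protein-coding symbol make up most of them in pre-B and immature B cells. Gm47578, Gm47031, Gm17494 and Gm17300 lie between the dashed lines in every panel. Gm45090, at 35152 CPM in immature B and 16946 CPM in mature B cells, lies outside them in the last panel.

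Xist had the largest share of the members highest in pro-B cells. Its 3517, 247, 226 and 2546 counts from pro-B to mature B cells are shares of 29689, 2827, 2474 and 20022 CPM. Both outer libraries were thus far above both middle ones, and pro-B exceeded mature B cells 1.48-fold (95% interval 1.41 to 1.56). Per 1000000 mRNA counts Xist stood at 4052, 1026, 1009 and 2997, so the drop in the middle stages was smaller but of the same sign on that scale. Tsix, the antisense RNA that opposes Xist, had a member with 17.7, 35.7, 32.8 and 11.5 counts, highest in pre-B cells with an interval of its ratio to the next stage that included 1 (0.691 to 1.89). Ftx, a neighbour of Xist on the X chromosome, had a member with 6.75, 9.26, 23.4 and 18.3 counts, and Jpx had 88 counts over all its transcripts, none of which reached the minimum alone.

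The next 4 members led the pro-B cells by share. Gm28967 had 556, 114, 143 and 488 counts, and AU020206 had 456, 14.4, 6 and 134. Per 1000000 mRNA counts Gm28967 had 641, 475, 640 and 575, so pro-B and immature B cells were level on that scale. The share of AU020206 was 3.65 times (3.01 to 4.46) higher in pro-B than in mature B cells. A transcript of Bcl7a, a subunit gene of the SWI/SNF chromatin remodelling complex, had 360, 106, 18.2 and 58 counts. Per 1000000 mRNA counts it had 414, 439, 81.3 and 68.3 and was highest in pre-B cells. A transcript of Ebf1, the transcription factor that sets up the B lineage, had 339, 8.32, 16.0 and 298 counts, with pro-B and mature B cells 1.22-fold apart (1.04 to 1.43, an interval that included 1 with the counts halved).

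The sharpest pro-B members were almost absent elsewhere. A transcript of Ipo5, which encodes a nuclear import receptor, had 130 counts in pro-B cells and none in the other libraries. Its pro-B share was 31.9-fold above the floor of 3 counts in the next stage on the counts as deposited and 16.0-fold with the counts halved. Its gene had 153, 10, 19 and 147 counts, so in pro-B cells 85.0% (78.3% to 90.2%) of the gene's counts were this transcript and in mature B cells 0%, with an upper limit of 2.48%. A transcript of Trp53inp1, a gene induced by p53, had 114 counts in pro-B cells and none elsewhere, 28.0-fold above the floor as deposited and 14.0-fold with the counts halved. Another member of Trp53inp1 was highest in mature B cells. Its 2 members summed to 137, 6.81, 19.8 and 38.6 counts, which were 31.1%, 18.3%, 58.0% and 29.5% of the gene's counts from pro-B to mature B cells. Gm17021 had 227, 4, 6 and 6 counts, a ratio of 29.1 (13.2 to 80.2, or 9.67 to 143 with the counts halved). In RefSeq it overlaps Ccr9, the receptor for the chemokine CCL25, whose mRNA row had 140, 14, 20 and 40 counts and was also highest in pro-B cells.

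The pro-B library also held most of the counts of T and NK cell markers. The 6 genes of that list (Ccl5, Cd3e, Cd3g, Gzma, Klrd1 and Nkg7) had 178 counts in pro-B, 0 in pre-B, 0 in immature B and 5 in mature B cells, with Cd3e at 0 also in pro-B cells. The pro-B gate required B220 beside CD43, and the part of T and NK cells in the pro-B members was not tested. The pro-B marker list itself (6 genes) had 2014, 43, 10 and 48 counts, and the mature B list (6 genes) 759, 156, 893 and 10594, so each was highest in the library of its name. Dntt, Igll1 and Vpreb1 were at 0 in pre-B cells. The 4 pre-B markers had 1109, 256, 129 and 12.9 counts, or 1278, 1066, 576 and 15.2 per 1000000 mRNA counts, and did not single out the pre-B library. The 4 immature B markers had 4337, 7530, 9504 and 5087 per 1000000 mRNA counts, and 6 myeloid genes 936, 1049, 873 and 790, with Csf1r at 0 in every library. On the same scale 5 genes of all B cells had 3993, 4300, 5706 and 5034, 5 erythroid genes 278, 259, 103 and 152, and 4 plasma cell genes 316, 375, 282 and 111.

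Among the members highest in pre-B cells, the 5 with the largest shares had small ratios, and the 3 with the largest ratios had few counts. Gm17494, Gm17300, Gm45899, Gm29084 and Gm48799 had the largest shares, from 16928 to 37405 CPM in pre-B cells, at ratios to the next stage between 1.02 and 1.40. For Gm29084, with 1415, 1561, 1594 and 1751 counts, the interval of the ratio (0.954 to 1.10) included 1. The largest ratios belonged to a Zfand3 transcript with 8.24, 34.3, 0 and 10.2 counts (4.90-fold, 2.39 to 11.2), Gm42893 with 0.95, 37.7, 4.78 and 11.9 counts (4.62-fold, 2.36 to 9.70) and a transcript of Brsk2, a kinase gene of neurons, with 14.1, 41.8, 2.54 and 16.4 counts (3.72-fold, 2.11 to 7.29). All 3 rest on fewer than 50 counts in their highest library. Zfand3 has another member, which was highest in pro-B cells. Its 2 members summed to 54.4, 34.3, 7.32 and 32.5 counts, with pro-B and pre-B cells not apart beyond counting error (1.17-fold, 0.748 to 1.85).

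More counts stood behind Gm11175 and Bach2os, both chosen after their values were seen. The 2 transcripts of Gm11175 summed to 896, 2376, 1037 and 630 counts, with pre-B cells 2.39-fold (2.23 to 2.58) above immature B cells. Bach2os runs antisense in name to Bach2, the repressor that holds B cells from becoming plasma cells. Its 2 transcripts summed to 206, 566, 301 and 205 counts, 1.97-fold (1.71 to 2.27) higher in pre-B than in immature B cells. Both had more raw counts in pre-B than in any other library.

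In immature B cells the largest shares again belonged to Gm transcripts that stood little above the next stage. Gm47578, Gm47031, Gm45090, Gm48765 and Gm48161 had 19668 to 52806 CPM in immature B cells and ratios to the next stage of 1.1 to 1.3. Not all were level across the libraries. Gm45090 ran from 16946 CPM in mature B to 35152 CPM in immature B cells, and Gm48161 from 9055 CPM in pro-B to 19668 CPM. In raw counts Gm48765 and Gm48161 were highest in mature B cells, at 2999 and 2282 beside 2798 and 1793 in immature B cells. 4933423P22Rik stood further above the next stage, and its 2 transcripts summed to 148, 242, 891 and 242 counts. Its share was 3.52 times (3.05 to 4.08) higher in immature B cells than in pre-B cells, and the 2 transcripts had ratios of 4.70 (2.95 to 7.80) and 3.40 (2.93 to 3.97) on their own. Gm37637 followed with 14, 12, 42 and 17 counts (3.35-fold, 1.73 to 6.99). Gm42836, chosen after its values were seen, had 26.3, 24.6, 345 and 167 counts and so was high in both IgM+ stages.

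Rmrp led the members highest in mature B cells, with 1012, 348, 342 and 1650 counts and shares of 8543, 3990, 3751 and 12977 CPM, a ratio of 1.52 (1.40 to 1.64) over pro-B cells. Per 1000000 mRNA counts Rmrp had 1166, 1449, 1530 and 1943, so on that scale the middle stages were not below pro-B cells. Gm36043 had 102, 67.9, 742 and 1119 counts. Its share was 8142 CPM in immature B and 8801 CPM in mature B cells, 1.08-fold apart with an interval that included 1 (0.985 to 1.19), beside 857 CPM in pro-B and 778 CPM in pre-B cells. Per 1000000 mRNA counts it had 117, 283, 3321 and 1318 and was highest in immature B cells. In RefSeq Gm36043 overlaps Cd274, which encodes the checkpoint ligand PD-L1 and had 38.6, 0, 4.52 and 175 counts, or 44.5, 0, 20.2 and 206 per 1000000 mRNA counts, so Cd274 was low in immature B cells where Gm36043 was high.

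The other leading mature B members were transcripts of Rpl23 and Tpt1 and the pseudogene Gm15500. That of Rpl23, a ribosomal protein gene, had 549, 292, 293 and 1014 counts. Per 1000000 mRNA counts it stood at 632, 1215, 1312 and 1194, highest in immature B cells. One of Tpt1, which encodes the translationally controlled tumor protein, had 676, 229, 159 and 828 counts, or 779, 952, 710 and 975 per 1000000 mRNA counts. The pseudogene Gm15500 had 746, 149, 139 and 930 counts, 1.16-fold (1.05 to 1.28) higher in mature B than in pro-B cells, also the highest stage on the mRNA scale, and its reads may be shared with the parent gene.

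The sharpest mature B members carry the name of 1 gene. Rapgef4os3 had 0, 0, 4 and 147 counts, Rapgef4os2 had 0, 0, 0 and 56.5, and a noncoding transcript of Rapgef4 had 0, 0, 0 and 77.5. Rapgef4 encodes EPAC2, an exchange factor for RAP GTPases that is switched on by cAMP. Its mRNA row had 11, 2, 0 and 107 counts, and 72.4% (62.5% to 80.2%) of the gene's counts in mature B cells were the noncoding transcript. The 3 members and the gene's row were each highest in mature B cells. The Rapgef4 transcript stood 24.1-fold over the floor of the next stage as deposited and 12.0-fold with the counts halved, and Rapgef4os2 17.5-fold and 8.77-fold.

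**Figure D3:**
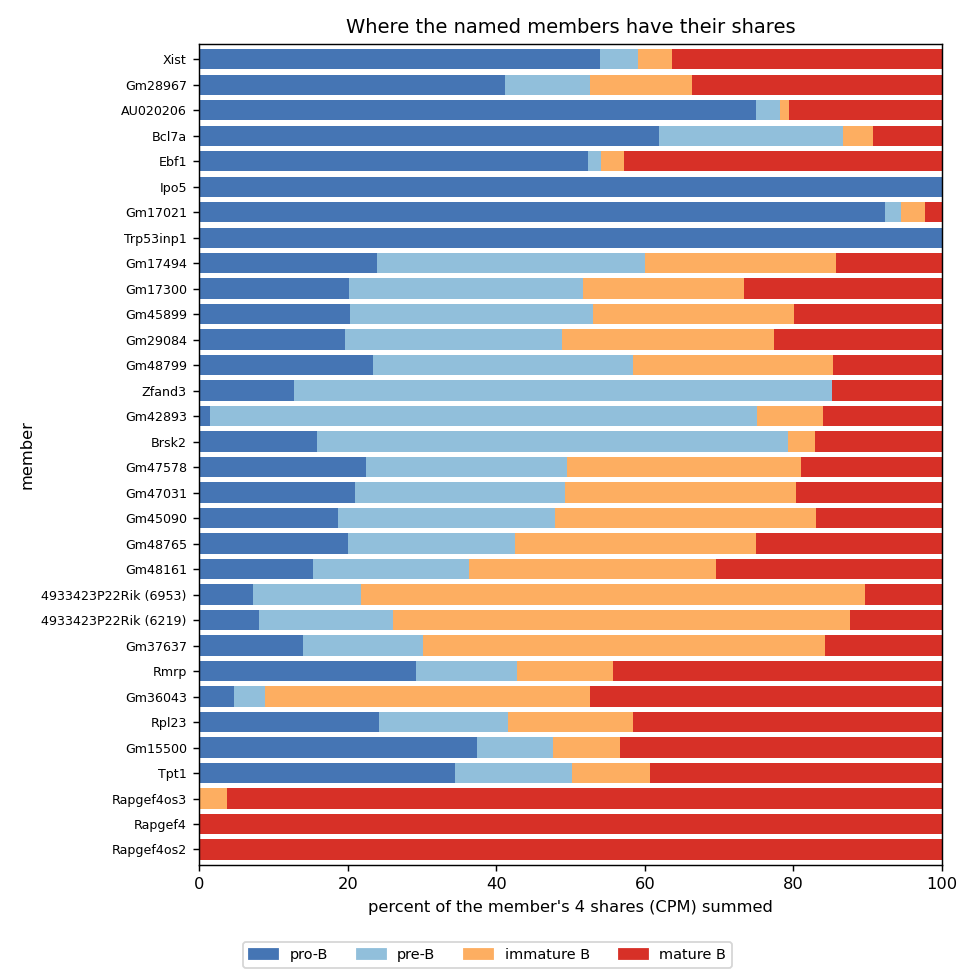
Percent of each named member's 4 shares (CPM, summed to 100) that lies in each stage (horizontal axis, percent; 1 bar a member, colours for the 4 stages; the last 4 digits of the identifier tell 2 transcripts of 1 symbol apart). Ipo5, Trp53inp1, Rapgef4 and Rapgef4os2 fill 1 stage, the abundant Gm transcripts divide their bars almost evenly, and Gm36043 lies almost wholly in immature and mature B cells.

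Of the 17 members on the lists of studied lncRNAs, 14 had fewer raw counts in both middle libraries than in both outer ones, as did 84.2% of the mRNA rows, 37.2% of all members and 15.4% of those without a RefSeq match. The exceptions were Tsix, Firre and Ftx, each by its member alone. Over all their annotated rows Firre had 51, 4, 6 and 9 counts and Ftx 60.0, 22.1, 41.8 and 56.3. Summed so, both were lower in both middle libraries, and Tsix, with 31.1, 39.9, 43.9 and 19.7 counts, was not. Kcnq1ot1, the antisense RNA that silences an imprinted cluster, had 267, 57, 36 and 287 counts, with pro-B and mature B cells equal within counting error (1.0-fold, 0.845 to 1.19). Peg13, another imprinted RNA, had 54, 12, 6 and 93 counts. Meg3, Rian, Mirg, H19 and Airn had 30, 4, 2, 2 and 2 counts over all their transcripts and no member. The Norad homolog 2900097C17Rik had 264, 22.8, 23 and 158 counts, 1.79-fold (1.47 to 2.2) higher in pro-B than in mature B cells. Norad binds the Pumilio proteins in the cytoplasm.

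Tug1 had 3 members, which summed to 250, 32.2, 32.5 and 358 counts. Of these, 1 was highest in pro-B and 2 in mature B cells. The 2 Lncpint members summed to 48.8, 0, 1.18 and 149 counts, 2.84-fold (2.04 to 4.0) higher in mature B than in pro-B cells. Firre, an X-linked RNA that helps to organize the nucleus, had a member with 36.7, 4, 6 and 5.73 counts, highest in pro-B cells (4.70-fold, 1.99 to 13.8). Zfas1, a host of snoRNAs, had 53, 6, 6 and 41 counts, and Mirt1 had a member with 39.6, 6, 0 and 26.2. Pvt1, Miat and Morrbid had 6, 2 and 21 counts in all and no member, and the miRNA hosts Mir155hg, Mir142hg and Mir22hg, with 20, 6 and 25 counts, had none either.

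The 337 members with a protein-coding symbol were also read within their genes, a measure that no scaling of the libraries changes. Over all 305 symbols with an mRNA row, the members held 25.2%, 44.7%, 44.9% and 25.3% of the gene counts from pro-B to mature B cells. Without the 10 genes with the most member counts these percents were 22.1%, 33.9%, 33.7% and 22.4%. Over the 168 genes with at least 20 counts in every library, where each gene counts alike, the median percent was 18.3%, 20.4%, 23.8% and 22.7%. From pro-B to pre-B cells the percent rose for 45 and fell for 29 of the 168 genes with intervals that did not overlap. From immature B to mature B cells it rose for 31 and fell for 40. These intervals use counts that were not halved and leave out errors in assigning reads to transcripts.

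Single genes changed in their own ways. The Ebf1 transcript made 33.1% (30.2% to 36.1%) of the gene's counts in pro-B, 5.31% (2.23% to 9.79%) in pre-B, 16.0% (9.43% to 24.7%) in immature B and 45.5% (41.6% to 49.4%) in mature B cells. A transcript of Macf1, a linker of actin and microtubules that was chosen after its values were seen, made 14.8% (12.4% to 17.4%), 0% (up to 4.74%), 21.4% (10.8% to 38.5%) and 25.4% (23.8% to 27.0%). The Tpt1 transcript stood at 48.9% and 48.5% in the outer and 33.3% and 31.2% in the middle stages. The Rpl23 transcript made 79.3% to 89.9% of its gene in all libraries, and that of Bcl7a 56.1% to 73.8%.

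**Figure D4:**
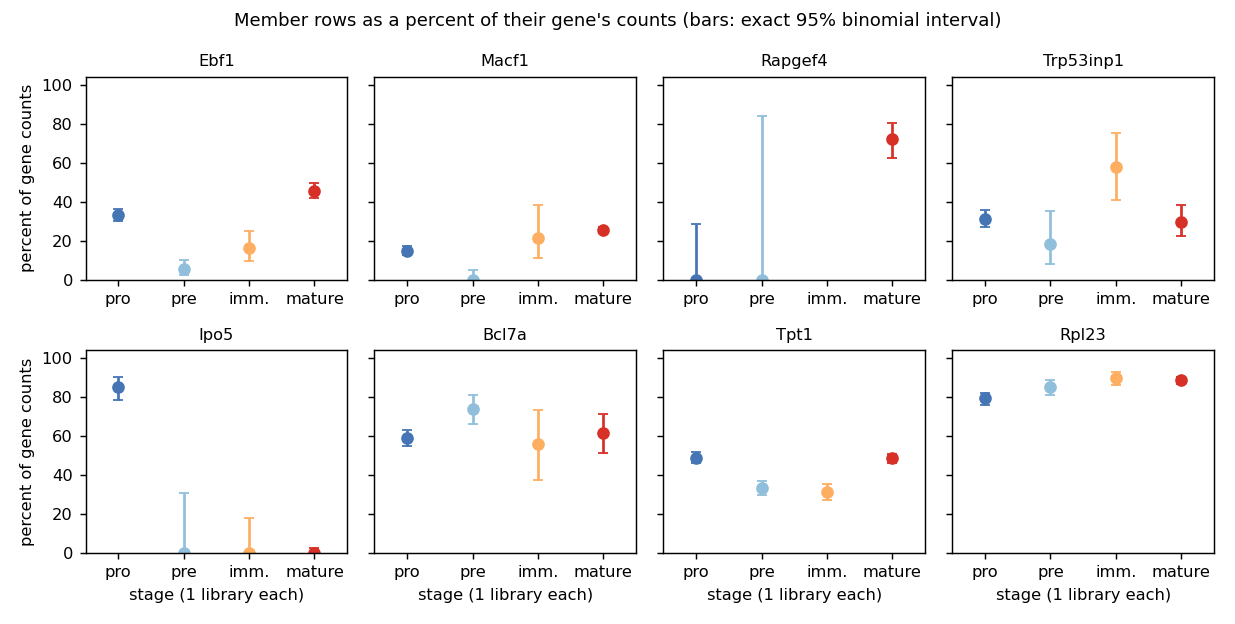
Counts of the member transcripts as a percent of the counts of their gene in the mRNA table (vertical axis, percent; horizontal axis, the 4 stages, 1 library each; bars, exact 95% binomial intervals) for 8 genes. The intervals use the counts as deposited, not halved. Ebf1 and Tpt1 are lower in pre-B and immature B than in pro-B and mature B cells, Ipo5 is high in pro-B cells only, Rapgef4 had no counts in immature B cells and no point there, and Rpl23 stays above 79.3%.

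The highest stage of a member was set beside that of a gene near it or of the same name, each on its own table's total. Of 329 members with the symbol of an mRNA row 186 (56.5%) shared its highest stage, but these rows contain the members' own counts. With the annotated lncRNA counts taken out of the gene, 256 members had a remainder of 50 counts or more and 100 of them (39.1%) shared its highest stage, or 82 (32.0%) with both on the mRNA total. Among 25 members named after another gene with enough counts, 14 (56%) shared its highest stage. Among 166 members whose neighbour came from RefSeq, 45 (27.1%) did, beside 28.4% of 6807 pairs of adjacent protein-coding genes in RefSeq order.

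Members named after a gene moved with it or apart from it. Runx2os2 had 57, 0, 0 and 1 counts beside 299, 4, 2 and 16 of Runx2, the bone and lymphoid transcription factor. Lef1os1 had 62.3, 32.2, 0 and 0 counts beside 303, 0, 0 and 8 of Lef1, a Wnt-linked factor of early B and T cells, and Lrp8os2 had 52, 0, 6 and 0 beside 105, 0, 4 and 0 of Lrp8, a lipoprotein receptor. On their own tables' totals these 3 pairs were highest together in pro-B cells, the library that also held the T and NK marker counts. Divided by the mRNA total, Lef1os1 was highest in pre-B cells, where Lef1 had 0 counts.

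Other pairs went apart. Bach2 had 767, 179, 113 and 779 counts, which are 883, 743, 507 and 918 per 1000000 mRNA counts. On its own table's total Bach2 thus fell little from pro-B to pre-B cells and was lowest in immature B cells, while Bach2os was highest in pre-B cells. Zeb2os had 14.3, 41.1, 25 and 4 counts beside 501, 126, 30.1 and 128 of Zeb2, a zinc finger repressor, which stood at 577, 527, 135 and 151 per 1000000 mRNA counts. Arhgap15os had 37, 58, 84 and 93 counts beside 141, 9.75, 2 and 254 of Arhgap15, or 162, 40.6, 8.95 and 299 per 1000000 mRNA counts. Of these 3 genes, Arhgap15 was the one far lower in both middle stages on that scale too. These pairs and those of the paragraph before were chosen after their values were seen.

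**Figure D5:**
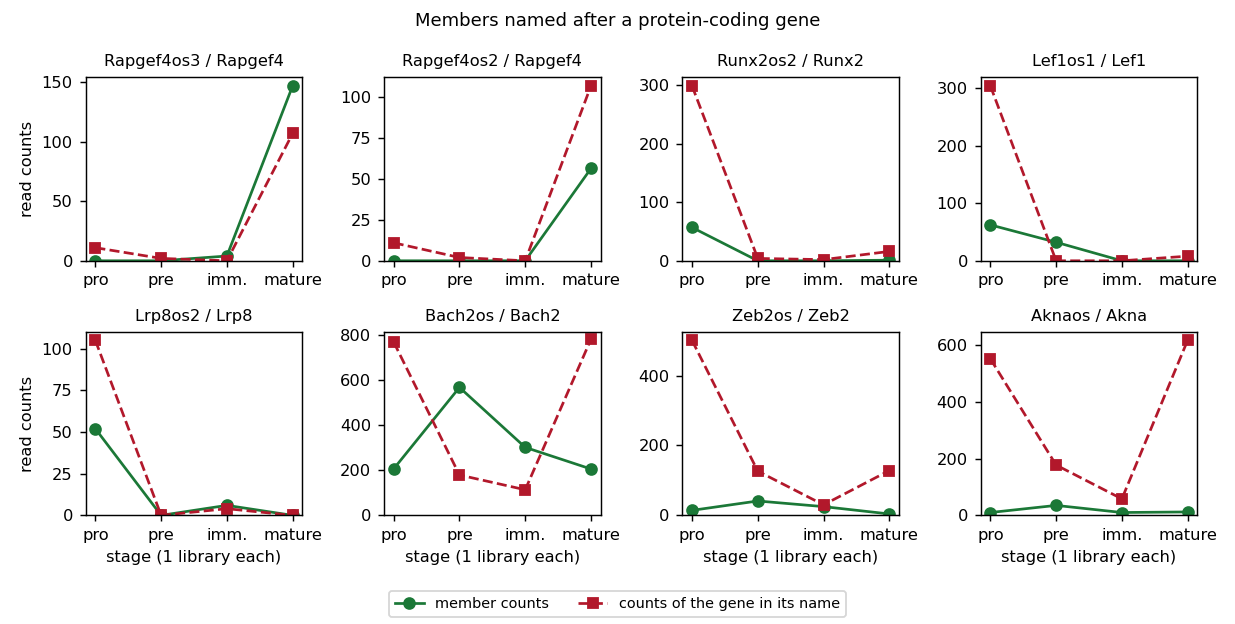
Raw counts of 8 members (solid line) and of the protein-coding gene in their name (dashed line) in the 4 libraries (vertical axis, read counts from 0; horizontal axis, stage, 1 library each; the 2 Bach2os transcripts summed). Rapgef4os3 and Rapgef4os2 rise with Rapgef4 in mature B cells, Runx2os2, Lef1os1 and Lrp8os2 are highest in pro-B cells with their genes, and Bach2os peaks in pre-B cells, while every gene's raw counts come from smaller mRNA totals in pre-B and immature B cells.

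Mir17hg, Dleu2 and Ftx carry miRNAs, which were measured in the small RNA library of each stage. Shown are 4 mature miRNAs of Mir17hg, the first 2 with the same seed and the other 2 with the most tags, and 1 each of Dleu2 and Ftx, with the seed (bases 2 to 8) in capitals.
mmu-miR-17-5p of Mir17hg: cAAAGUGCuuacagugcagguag
mmu-miR-20a-5p of Mir17hg: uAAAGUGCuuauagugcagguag
mmu-miR-92a-3p of Mir17hg: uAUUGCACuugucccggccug
mmu-miR-19b-3p of Mir17hg: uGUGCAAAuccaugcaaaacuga
mmu-miR-16-5p of Dleu2: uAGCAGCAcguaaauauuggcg
mmu-miR-374b-5p of Ftx: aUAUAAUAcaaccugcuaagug

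Mir17hg, the host of the miR-17-92 cluster that promotes survival of early B cells, had 23, 5, 2 and 29 counts, with pro-B and mature B cells not apart beyond counting error (1.17-fold, 0.656 to 2.13). Per 1000000 mRNA counts the host had 26.5, 20.8, 8.95 and 34.1. Its miRNA miR-92a-3p fell and rose at the same steps, while miR-17-5p and miR-19b-3p did not. Per 1000000 miRNA tags miR-17-5p stood at 683, 983, 725 and 185, miR-19b-3p at 517, 843, 1323 and 678, and miR-92a-3p at 65509, 47832, 37772 and 43295. miR-17-5p and miR-20a-5p, which share the seed AAAGUGC, both had their lowest value in mature B cells (185 and 155), as did miR-18a-5p at 1.63. Dleu2, the host of miR-15a and miR-16, had a member with 32.0, 0, 2.45 and 18 counts. Summed over its annotated rows, Dleu2 had 53, 6, 6 and 20 counts. miR-16-5p stood at 7206, 9538, 10229 and 6845 per 1000000 tags. miR-374b-5p of Ftx had 640, 1972, 1747 and 766 per 1000000 tags, and the Ftx member had its 2 highest counts in immature and mature B cells. Over all its annotated rows Ftx had 60.0, 22.1, 41.8 and 56.3 counts, with the most in pro-B and the fewest in pre-B cells. Host and miRNA come from different libraries, and miR-16-5p, miR-19b-3p and miR-92a-3p are also made from other loci.

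At the edge of the count minimum stood Prkag2os2, Gm15890 and 4632428C04Rik, each with 50 counts in all, inside, and Cript, Gm44053 and Gm26636, with 49.9, 49.8 and 49.7, outside. The minimum is on summed raw counts, so a transcript high in the larger libraries reaches it more easily than one high in pre-B or immature B cells. With the 4 shares weighted equally, 878 rows reached the same level, and 198, 249, 229 and 202 of them were highest in the stages in their order of development.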

How the data were processed

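Long RNA was measured in 4 libraries (1 a stage, cells of 3 mice pooled) and miRNAs in 4 small RNA libraries. The authors cleaned reads with fastp, removed rRNA reads with Bowtie2, mapped the rest with HISAT2 using strand and estimated transcripts with StringTie. The lncRNA and mRNA tables hold estimated counts deposited without normalization, which are not whole for 663 members, and FPKM values that the authors scaled by length and mapped fragments. For miRNAs the authors deposited tag counts, which were used, and TPM values of them, which were not. The submitters' processing notes name mm9 and Bowtie 0.12.2. RefSeq tables of GRCm38.p6 were therefore used for names, neighbours and sequences only. By symbol 600 members (65.7%) matched a RefSeq gene and 457 a promoter.

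The members and lists were chosen with earlier results of these data known. Named are, per stage, the 5 members with the largest share and the 3 with the largest ratio to the next stage at 30 counts or more, the 5 with the most counts and the members on fixed lists of studied lncRNAs. Shares, ratios and Clopper-Pearson and Poisson intervals were computed in Python 3.11.15 with scipy 1.17.1. Library sizes for alternatives came from edgeR 4.0.16 and DESeq2 1.42.0 on rounded mRNA counts. Only the 2-fold calls and the ratio intervals were tested on simulated data, with independent Poisson counts and not reads counted in pairs. Other scalings, units, count minimums and summing by symbol were tried as alternatives.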

Additional observations from a re-analysis of the deposited data

How the results depend on the processing

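No paired analysis was possible because each stage has 1 library, and for the same reason no library was left out within a stage. The total without Malat1, Neat1, Gas5 and Snhg transcripts, the members' own total, the equal weighting of shares (878 members) and the summing of transcripts by symbol (963 members) kept every count within 1.5 times its value.

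With the mRNA total, 111 members were highest in pro-B, 379 in immature B and 138 in mature B cells, 527 and 154 were higher and lower at the step from pro-B to pre-B, and 141 were higher and 540 lower in mature B than in immature B cells. With DESeq2 size factors these values were 96, 380, 150, 556, 134, 141 and 539. With TMM sizes they were 101, 383, 153 (within 1.5 times), 532, 149, 147 and 525. With FPKM values 125 members were highest in pre-B and 357 in mature B cells, 107 were higher at the step to pre-B and 120 lower in mature B than in immature B cells.

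Another minimum changes how many members there are. At 20 counts (1941 members), 567, 400, 387 and 587 were highest in the stages in their order of development. Higher and lower were 370 and 695 in pre-B, 282 and 321 in immature B and 714 and 387 in mature B cells against the stage before, 87 had 90% in 1 stage, 1115 had counts in all libraries and 517 shared the stage of the linked gene. At 100 counts (478 members) the values in this order were 88, 157, 139, 94, 102, 113, 57, 54, 123, 116, 5, 430 and 107. With no minimum (8878 members) they were 3033, 1614, 1533, 2698, 680, 1033, 409, 545, 1029, 692, 4338, 1281 and 1599. Rows under the minimum were linked only to a gene of the same symbol or in the name. At the minimum of 50 counts, 186 of the 245 members that shared the stage of the linked gene were linked to a row that contains their own counts.

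Chosen after the data were seen, leaving out the members with a protein-coding symbol (576 left) gave 81 highest in pro-B and 98 in mature B cells, 101 lower at the step to pre-B, 81 higher and 72 lower in immature B than in pre-B and 83 higher in mature B than in immature B cells, 8 with 90% in 1 stage and 58 that shared the stage of the linked gene. Leaving out those without a RefSeq match (601 left) gave 128 highest in pre-B and 108 in immature B cells, 108 higher at the step to pre-B, 89 higher in immature B than in pre-B and 106 lower in mature B than in immature B cells, and 438 with counts in all libraries. Without the pre-B and immature B libraries, 451 members were higher in pro-B and 462 in mature B cells. Taking the annotated counts out of the same-symbol genes and halving the counts were also chosen then.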
